A study of Homo sapiens with 12 samples.

Results

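The mitochondrial ribosomal protein genes were taken as every entry of the count table whose symbol is MRPL or MRPS followed by a number and at most 1 letter A, B or C. This rule found 78 of the 44659 entries, 49 with a large subunit symbol (MRPL) and 29 with a small subunit symbol (MRPS). The RNA came from A375, an established line of human melanoma cells, with 4 groups of 3 libraries each. In the control group (CC), cells were kept for 72 h with DMSO, the solvent. The treated cells (TC) received MAPKi, a mixture of 500 nM vemurafenib and 500 nM cobimetinib, which inhibit BRAF and MEK, for 72 h. Persister cells (PC) went through the same 72 h with drug and then spent 2 days without it, and recovered cells (RC) spent 9 days without it. The labels list no DMSO libraries for these added days. In PC and RC, drug removal and time in culture therefore cannot be told apart. All groups are the same cell line, and the RNA was the cytoplasmic fraction after depletion of ribosomal RNA. Nothing in the labels says whether the 3 libraries of a group came from separate cultures, so that p-values measure the spread between these libraries, which may be technical.

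The mitochondrial ribosome translates the messenger RNAs made from mitochondrial DNA, which code for membrane subunits of the respiratory chain and of ATP synthase. Its RNAs come from mitochondrial DNA, whereas all its proteins are coded in the nucleus, made in the cytosol and imported. The small subunit binds the messenger RNA and decodes it, and the large subunit forms the peptide bond and passes the new chain to the inner membrane. Gene symbols do not always follow the structure: MRPS18A and MRPS30 carry small subunit symbols but their proteins sit in the large subunit, and MRPS36 (also called KGD4) codes for a component of the 2-oxoglutarate dehydrogenase complex of the citric acid cycle.

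Total counts ran from 37773389 to 55567097 per library, where 3 counts correspond to at most 0.0794 CPM (the count relative to library size after TMM scaling). This limit covers counting error only. Of 15916 genes with a mean scaled count of at least 10, 74 were members, 47 large and 27 small. The lineage marker SOX10 was at 659 ± 7.51 CPM in CC (SD, n = 3) and 1046 ± 20.4 CPM in TC. Of 10 tested lineage and melanoma markers 6 rose and 2 fell in TC, against 33.2% and 34.7% of all tested genes. The 2 that fell were S100B (264 ± 36.65 to 140 ± 11.0 CPM) and CSPG4 (1695 ± 394 to 114 ± 26.6 CPM). CSPG4 had the highest CC mean of the 10. MLANA and TYR, which rose, were at means of only 0.546 and 2.09 CPM in CC. Among 7 markers of other cell types, CDH5 was at 0 in every library, and 3 passed the filter, of which KRT18 (82.9 ± 14.8 CPM in CC and 13.8 ± 1.19 CPM in TC) alone had a group mean above 3 CPM. Its part in the results was not tested. Against CC all 6 MAPK output genes were lower in TC (median log2 fold change -5.16) and in PC (-5.22), and 2 were lower in RC (-0.22). Among them SPRY4, a feedback inhibitor of this pathway, was at 342, 270 and 720 CPM in the CC libraries 1, 2 and 3. It was at 1.46 to 1.79 CPM in TC, at 0.674 to 0.925 CPM in PC and at 249 to 285 CPM in RC.

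The 78 members lie on 21 chromosomes, with 8 each on chromosomes 1, 2 and 17. In GENCODE v44 (GRCh38) 26 of the 78 (33.3%) have the start of another protein-coding gene within 1000 nt upstream on the opposite strand, against 1778 of 19061 protein-coding genes (9.33%). MRPL46 and MRPS11 are such neighbours of each other, with starts 320 nt apart on chromosome 15. The 19061 genes include ones that were not tested here, and the share among tested genes was not computed. Promoters are shown for MRPS5, MRPS30 and MRPL3, which were among the members with the largest falls after MAPKi, and for MRPL33, the member called higher beyond 1.5-fold, as examples of both directions. Each runs from 250 bases before to 50 bases after the RefSeq start in build GRCh38.p14, read along the gene's strand: MRPS5 at chr2:95121759-95122058 on the minus strand, MRPS30 at chr5:44808697-44808996 on the plus strand, MRPL3 at chr3:131502922-131503221 on the minus strand and MRPL33 at chr2:27771469-27771768 on the plus strand. Capitals mark a match, on either strand, to the motifs AAGATGGCG (YY1), CCGGAAGT (ETS), GCGCATGCG (NRF1 core) or CACGTG (E-box), which do not overlap each other here.
MRPS5: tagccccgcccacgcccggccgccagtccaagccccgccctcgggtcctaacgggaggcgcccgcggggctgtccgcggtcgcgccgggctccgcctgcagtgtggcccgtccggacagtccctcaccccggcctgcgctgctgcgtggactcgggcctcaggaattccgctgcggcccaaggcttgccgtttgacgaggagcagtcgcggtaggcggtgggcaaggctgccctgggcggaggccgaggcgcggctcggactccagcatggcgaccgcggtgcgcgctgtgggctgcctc
MRPS30: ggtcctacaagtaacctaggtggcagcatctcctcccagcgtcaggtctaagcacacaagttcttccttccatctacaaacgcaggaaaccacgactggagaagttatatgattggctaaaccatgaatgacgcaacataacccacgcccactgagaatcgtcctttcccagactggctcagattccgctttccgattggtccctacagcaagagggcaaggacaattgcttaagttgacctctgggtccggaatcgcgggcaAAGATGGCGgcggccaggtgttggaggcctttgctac
MRPL3: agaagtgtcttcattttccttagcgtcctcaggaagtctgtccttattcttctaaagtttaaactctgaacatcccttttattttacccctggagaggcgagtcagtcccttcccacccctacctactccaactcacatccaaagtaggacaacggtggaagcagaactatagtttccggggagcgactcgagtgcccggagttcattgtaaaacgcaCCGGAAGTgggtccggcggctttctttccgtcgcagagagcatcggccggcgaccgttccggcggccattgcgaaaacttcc
MRPL33: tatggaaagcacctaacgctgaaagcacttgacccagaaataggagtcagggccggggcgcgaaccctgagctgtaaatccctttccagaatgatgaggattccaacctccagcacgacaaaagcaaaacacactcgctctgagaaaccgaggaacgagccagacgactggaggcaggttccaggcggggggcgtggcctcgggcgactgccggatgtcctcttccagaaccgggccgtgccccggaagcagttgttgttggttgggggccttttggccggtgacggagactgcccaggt

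Of the 78 members, 70 had a RefSeq promoter. The YY1 motif stood in 13 of the 70 (18.6%), 8 large and 5 small, against 505 of 27305 promoters of this length (1.85%) and 3.67% of those of tested genes. ETS motifs stood in 11 members (15.7%), 9 large and 2 small, against 4.44% of all promoters and 8.15% of those of tested genes. The NRF1 core stood in 3 members (4.29%) and the E-box in 7 (10.0%), against 2.1% and 7.43% of all promoters. Promoters of tested genes held these motifs at 3.62% and 9.9%, close to the shares of the members. Members with the YY1 motif had a median log2 fold change of -0.28 between TC and CC, and members without it had the same median of -0.28. These matches describe letters in a window and were not tested as binding sites.

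Summed over the tested members, transcripts were at 4834, 5553 and 4775 CPM in the CC libraries 1, 2 and 3. They were at 4202, 4067 and 3945 CPM in TC, at 3942, 4031 and 3925 CPM in PC, and at 5440, 5494 and 5444 CPM in RC. TC and PC lay below every CC library, and the RC range lay inside that of CC, whose second library stood above the other two. The large subunit sum was 3306 ± 315 CPM in CC (SD, n = 3), 2781 ± 101 in TC, 2723 ± 34.4 in PC and 3636 ± 19.8 in RC. For the small subunit the sums were 1748 ± 119, 1290 ± 27.5, 1243 ± 22.5 and 1823 ± 20.7 CPM in the same order. The ratio of the large to the small sum ran from 1.85 to 1.95 in CC, from 2.12 to 2.19 in TC, from 2.18 to 2.205 in PC and from 1.98 to 2.02 in RC. Every TC and PC library therefore had a higher ratio than every CC or RC library. These sums go by symbol, so that MRPS18A, MRPS30 and MRPS36 count as small and subunit genes with other symbols are left out. The ratio by structure was not computed. CPM are relative to the RNA sequenced and give no amount per cell. In these bulk data, a change in these transcripts, in the rest of the RNA and in the mix of cells cannot be told apart.

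**Figure D1:**
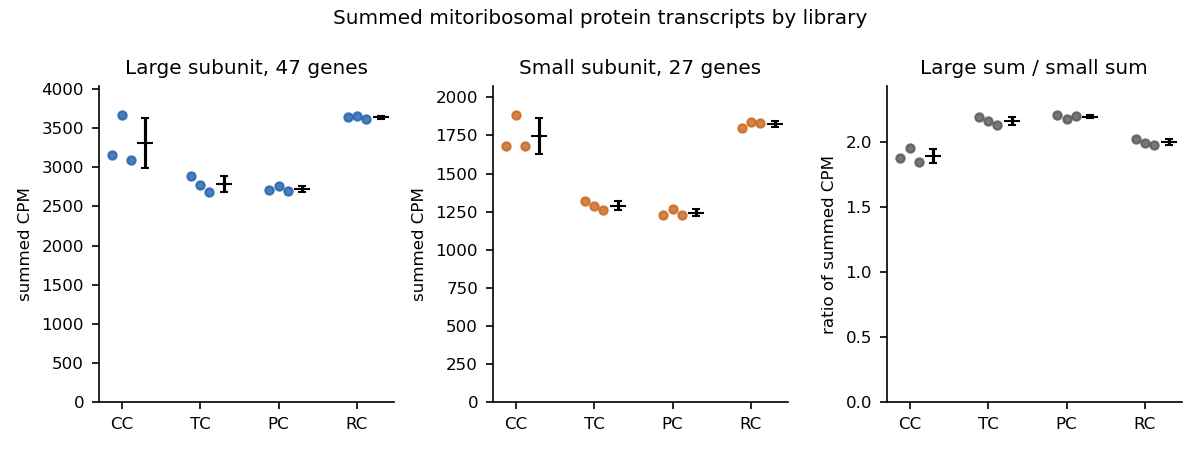
Summed CPM of tested members with large (left) and small (centre) subunit symbols and the ratio of both sums (right), for control (CC), treated (TC), persister (PC) and recovered (RC) cells. Points are libraries and the black bar is the mean ± SD of 3. The ratio was 1.85 to 1.95 in CC and 2.12 to 2.205 across TC and PC.

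Levels of different members were compared per kilobase of the MANE Select transcript, over the 71 members with a mean of at least 5 CPM. In CC the median was 48.1 CPM per kb over 47 large and 40.5 CPM per kb over 24 small members. In TC these medians were 37.7 and 23.7 CPM per kb, in PC 36.3 and 21.3, and in RC 54.1 and 40.6. The highest levels in CC were those of MRPL53 (270 ± 42.2 CPM per kb, SD, n = 3), MRPL12 (204 ± 20.4), MRPL51 (141 ± 20.8) and MRPL41 (129 ± 23.0). The last pair differed by less than their SDs. MRPL53 shares 99.2% of its exon length with annotated exons of CCDC142 on the same strand, and MRPL12 69.5% with an unnamed gene. In all, 8 of the 78 members share over 50% in this way, and the counting of such reads is not stated. All exon overlaps given here are from GENCODE v44. Whether the NCBI annotation used for the counts holds the same overlapping genes was not checked. Small subunit members peaked at MRPS26 (104 ± 0.996 CPM per kb). At the low end were MRPL42 (5.55 ± 0.560), MRPL50 (5.99 ± 0.510) and MRPL19 (6.66 ± 0.508), and the lowest small member was MRPS17 (8.20 ± 1.37). Over the 71 members the upper quartile was 2.71 times the lower in CC and 2.98 times in TC. MRPL42 has a 15557 nt reference transcript, the longest of the 78, and a level per kb assumes that this isoform is the one expressed.

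**Figure D2:**
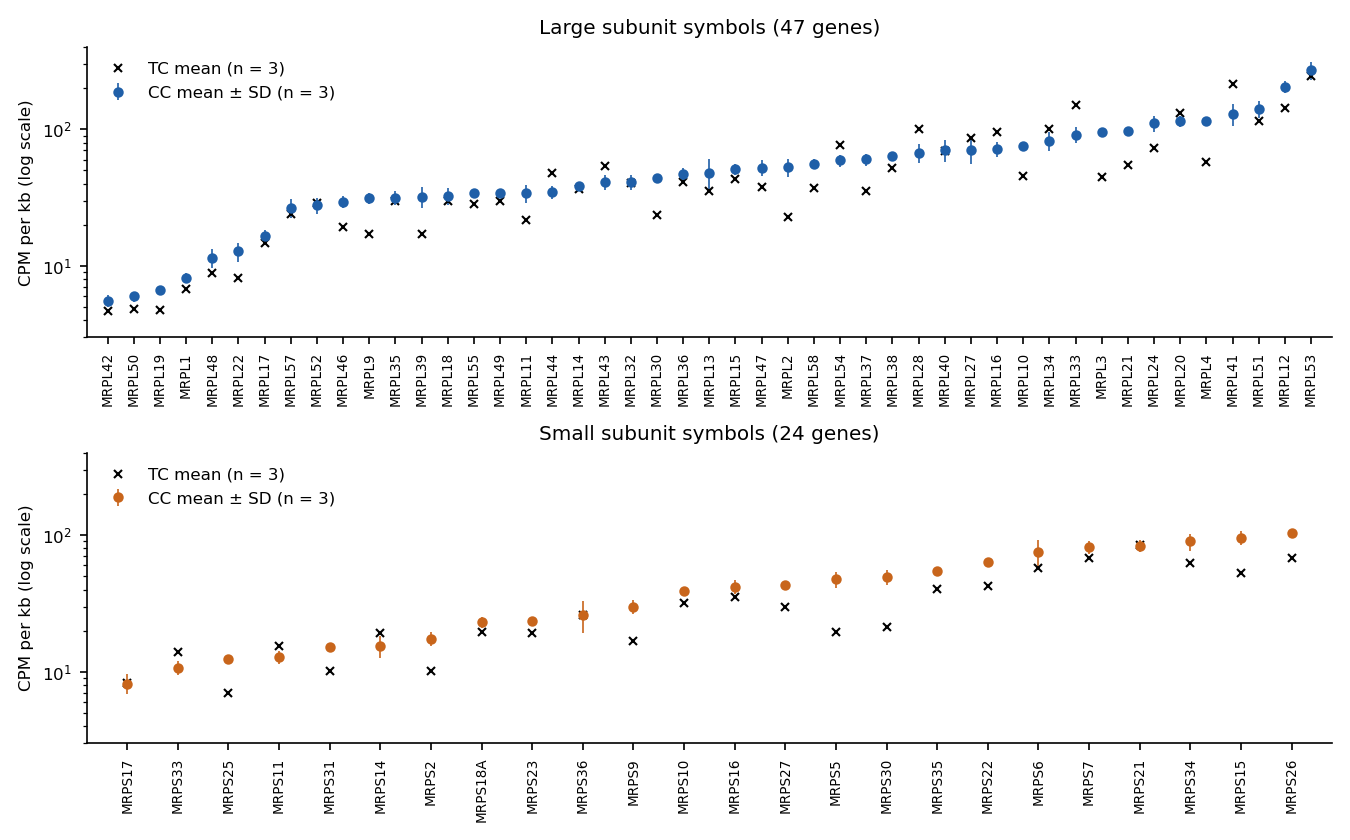
Level per kilobase in CC (coloured points, mean ± SD of 3 libraries) and in TC (crosses, mean of 3) for 47 large (top) and 24 small (bottom) members in order of their CC level, on a log axis. MRPL53 is highest at 270 CPM per kb in CC, and most crosses lie under their points.

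The comparison of TC with CC asks how drug treatment changed these transcripts. After 72 h of MAPKi, 45 of the 74 tested members fell and 14 rose (edgeR quasi-likelihood test, Benjamini-Hochberg adjusted p under 0.05 over all tested genes), while 34.7% of all tested genes were lower and 33.2% higher. Among large members 27 of 47 fell and 10 rose, and among small members 18 of 27 fell and 4 rose. The median log2 fold change was -0.25 for large and -0.30 for small members, and -0.02 over all tested genes. It was -0.42 for the 24 small members at 5 CPM or more. Beyond 1.5-fold (glmTreat adjusted p at most 0.05), 15 members were lower and 1 higher, against 19.3% and 16.1% of all tested genes. The share of members beyond 1.5-fold in the lower direction was thus near the background, whereas the share that fell at any size was above it.

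MRPS5, a core protein of the small subunit, was at 155, 179 and 136 CPM in CC and at 72.6, 63.8 and 58.5 CPM in TC. All its TC libraries lay below all CC libraries, and the log2 fold change was -1.27 with an SE of 0.10 (adjusted p = 2.72e-07). MRPS30, whose protein is part of the large subunit, went from 74.1, 77.5 and 92.6 CPM to 37.1, 34.6 and 34.3 CPM, a log2 change of -1.20 ± 0.08 (adjusted p = 7.39e-08). The groups were again apart. MRPL2, which lies by the peptidyl transferase centre, was at 65.4, 73.2 and 54.0 CPM in CC and at 31.2, 26.5 and 25.6 CPM in TC (log2 fold change -1.21 ± 0.10, adjusted p = 6.13e-07). MRPL3, another core protein of the large subunit, was at 156, 167 and 165 CPM against 79.8, 74.1 and 75.8 CPM (log2 fold change -1.09 ± 0.06, adjusted p = 8.52e-09). For both genes every TC library was under every CC library. In GENCODE v44, MRPS5 shares 97.1% and MRPL2 52.1% of exon length with an unnamed gene on the same strand. Whether this bears on their counts, which used the NCBI annotation, was not tested. MRPL4, a protein at the peptide exit tunnel, changed by -0.997 ± 0.07, and MRPL39 by -0.91 ± 0.11 on the log2 scale. MRPS15 changed by -0.86 ± 0.08 and MRPS9 by -0.84 ± 0.11. The other members that were lower beyond 1.5-fold were MRPL9, MRPL10, MRPL21, MRPL30, MRPL37, MRPS2 and MRPS25, with log2 fold changes between -0.89 and -0.73.

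MRPL33 and MRPL41 moved the other way. MRPL33, a small protein with a bacterial counterpart, was at 43.2, 53.4 and 42.2 CPM in CC and at 74.1, 80.8 and 75.7 CPM in TC, and was the single member higher beyond 1.5-fold (log2 fold change 0.73 ± 0.09, adjusted p = 1.09e-05). MRPL41, a protein found in the mitochondrial but not the bacterial ribosome, went from 70.1, 90.3 and 65.1 CPM to 139, 123 and 115 CPM (log2 fold change 0.74 ± 0.11, adjusted p = 9.63e-05). Neither gene's groups overlapped. MRPL28 rose by 0.58 ± 0.09 and MRPL44, which has a fold related to ribonuclease III, by 0.46 ± 0.13 on the log2 scale. In the small subunit MRPS33 rose by 0.37 ± 0.08, MRPS14 by 0.31 ± 0.11 and MRPS11 by 0.27 ± 0.07, and the MRPS14 libraries overlapped those of CC. The neighbours MRPL46 and MRPS11 went in opposite directions, since MRPL46 changed by -0.63 ± 0.09. MRPL46 shares 73.4% of its exon length with an unnamed gene on the same strand.

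**Figure D3:**
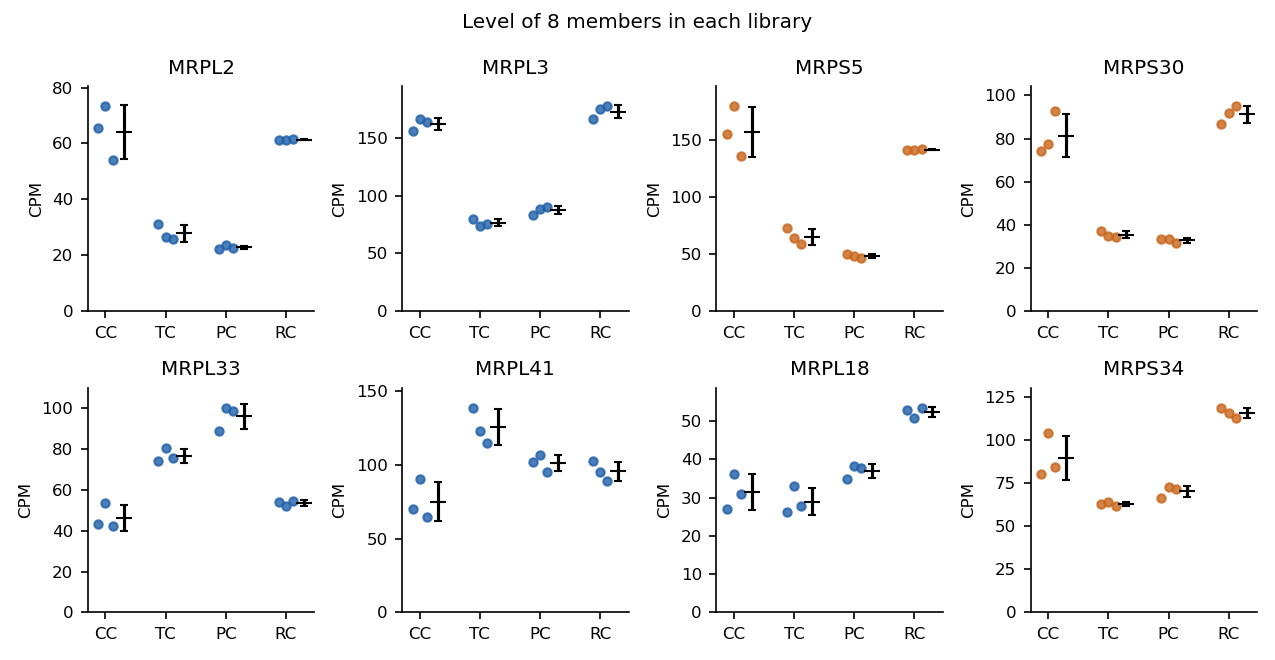
Level in CPM of 8 members in each library of control (CC), treated (TC), persister (PC) and recovered (RC) cells. Points are libraries, the black bar is the mean ± SD of 3, and blue marks large and orange small subunit symbols. MRPL2, MRPL3, MRPS5 and MRPS30 are low in TC and PC, and MRPL33 is highest in PC (89.1 to 100 CPM).

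Members with a known second role or position were followed by name. MRPL12, a protein of the stalk that recruits translation factors, was at 205, 227 and 186 CPM in CC and 151, 143 and 141 CPM in TC (log2 fold change -0.51 ± 0.07, adjusted p = 5.15e-05). MRPL58, a peptidyl-tRNA hydrolase that frees stalled ribosomes, changed by -0.60 ± 0.07 (adjusted p = 7.48e-06). Lower by a similar amount were MRPS22 (-0.60 ± 0.06), MRPS31 (-0.58 ± 0.08) and the pentatricopeptide repeat protein gene MRPS27 (-0.54 ± 0.05). MRPS16 changed by -0.26 ± 0.08 with libraries that overlapped CC, and MRPS18A by -0.24 ± 0.09. MRPS36 was at 31.2, 44.6 and 27.5 CPM in CC and 34.7, 35.5 and 31.8 CPM in TC, and the log2 difference of -0.02 ± 0.14 did not pass the test (adjusted p = 0.918). Without the second CC library it was 0.21 (adjusted p = 0.0408).

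**Figure D4:**
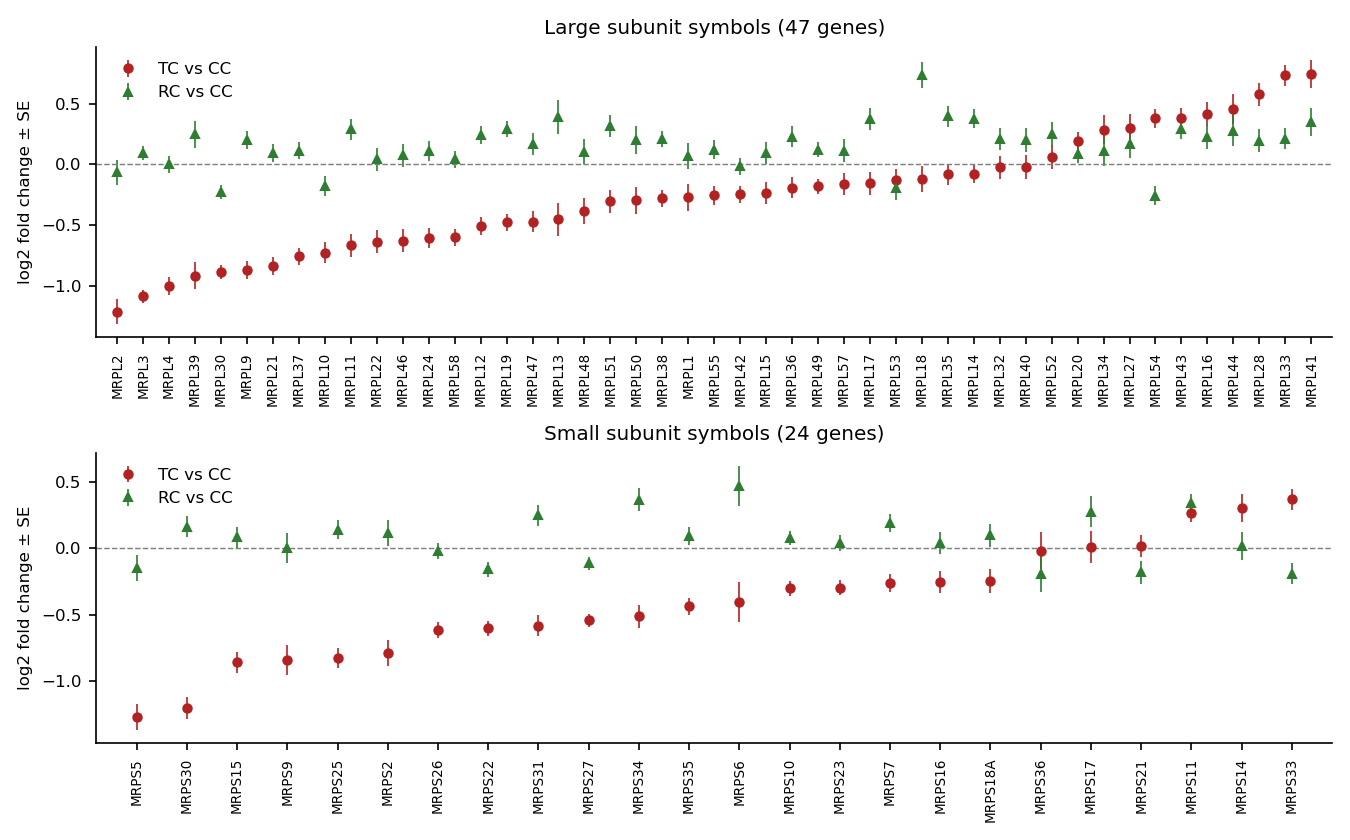
Log2 fold change ± SE against CC of 47 large (top) and 24 small (bottom) members, in order of their TC value. Red circles are TC and green triangles RC, 3 libraries per group. Red points run from -1.27 (MRPS5) to 0.74 (MRPL41), and most green points lie near or above 0.

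The comparison of PC with CC asks what was left 2 days after the drug was removed, with no DMSO control of that time. In PC 42 members were lower and 8 higher than in CC (edgeR adjusted p under 0.05), against 35.9% and 33.2% of all tested genes. There were 25 lower and 5 higher among large and 17 lower and 3 higher among small members, with median log2 fold changes of -0.30 and -0.43. Beyond 1.5-fold 18 were lower and 1 higher (19.9% and 17.2% of all tested genes). MRPS5 was at 50.1, 48.2 and 46.0 CPM in PC, a log2 change of -1.70 ± 0.10 from CC (adjusted p = 2.24e-08). MRPL2, at 22.2, 23.4 and 22.6 CPM, changed by -1.50 ± 0.11, and MRPS30, at 33.2, 33.4 and 31.5 CPM, by -1.32 ± 0.08. None of their PC libraries reached the CC range. MRPL4 (-1.29 ± 0.07), MRPS9 (-1.13 ± 0.12), MRPS25 (-1.10 ± 0.07), MRPL39 (-1.09 ± 0.11), MRPS15 (-0.98 ± 0.08), MRPL10 (-0.94 ± 0.08) and MRPS22 (-0.92 ± 0.06) followed. MRPL33 was at 89.1, 100 and 98.9 CPM (log2 fold change 1.05 ± 0.09, adjusted p = 4.2e-07), MRPL44 rose by 0.48 ± 0.13, MRPL41 by 0.43 ± 0.11, MRPL43 by 0.42 ± 0.08 and MRPS33 by 0.59 ± 0.08.

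Set directly against TC, PC had 12 members lower and 5 higher (12.5% and 12.2% of all tested genes), and beyond 1.5-fold 0 in either direction by glmTreat (1.15% and 2.33%). At an unadjusted glmTreat p under 0.05, 1 was lower and 0 were higher. The median log2 fold change was -0.01 for large and -0.05 for small members. MRPS5 changed by a further -0.43 ± 0.10 (adjusted p = 0.00779), MRPS22 by -0.32 ± 0.06 and MRPL4 by -0.29 ± 0.07. MRPL33 rose further by 0.32 ± 0.09 (adjusted p = 0.0179), and MRPL3 regained 0.19 ± 0.06 (adjusted p = 0.0281). Without TC library 1, 2 or 3 the count of higher members was 2, 2 and 1, and without PC library 2 or 3 it was 0 by the adjusted edgeR p and 5 and 6 at an unadjusted p under 0.05. DESeq2 called 6 higher and 12 lower with all libraries. The count of lower members was 3 without TC library 1 or PC library 3, and 6 without PC library 2.

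After 9 days without drug, RC had 19 members higher and 3 lower than CC (18.2% and 19.1% of all tested genes). There were 13 and 2 among large and 6 and 1 among small members. The remaining 52 of the 74 tested members passed no test against CC, and neither did most of all tested genes. Beyond 1.5-fold glmTreat called 0 in either direction (2 higher and 0 lower at an unadjusted p under 0.05), where 1.35% of all tested genes were higher and 2.52% lower. The median log2 fold change was 0.17 for large and 0.08 for small members. This count rests on single libraries: 34 members were higher without CC library 2, which had the highest member levels, 7 without CC library 1, and 9, 9 and 12 without RC library 1, 2 or 3. The count of lower members was 1 without CC library 1 or 2 or RC library 1 or 2, and 6 without CC library 3. MRPL18, a protein related to the bacterial one that binds 5S RNA, was at 27.1, 36.3 and 31.1 CPM in CC and at 53.0, 50.9 and 53.5 CPM in RC. Its groups were apart, with a log2 fold change of 0.74 ± 0.11 (adjusted p = 0.000325). MRPS34 rose from 80.3, 104 and 84.6 CPM to 119, 116 and 113 CPM (log2 fold change 0.37 ± 0.09, adjusted p = 0.00547). MRPL35 (0.40 ± 0.09), MRPL13 (0.39 ± 0.14), MRPL14 (0.38 ± 0.08), MRPS6 (0.47 ± 0.15) and MRPS11 (0.34 ± 0.07) also rose, and the MRPL13 libraries overlapped those of CC. MRPL54 (-0.26 ± 0.08), MRPL30 (-0.23 ± 0.05) and MRPS22 (-0.16 ± 0.06) were the 3 called lower.

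Between PC and RC, 51 members rose and 6 fell (35.7% and 34.2% of all tested genes), 32 and 4 among large and 19 and 2 among small members. Beyond 1.5-fold 25 were higher and 2 lower (20.2% and 18.5%). The median log2 fold change was 0.46 for large and 0.62 for small members, and 0.01 over all tested genes. MRPS5 rose by 1.55 ± 0.10 to 141, 141 and 142 CPM, MRPS30 by 1.48 ± 0.08 to 86.7, 91.9 and 94.9 CPM, and MRPL2 by 1.43 ± 0.11 to 61.2, 61.3 and 61.6 CPM. Their RC libraries fell inside the range of their CC libraries, except the third of MRPS30. The 2 members that fell beyond 1.5-fold were those that had risen furthest in PC, MRPL33 (-0.84 ± 0.09) and MRPS33 (-0.78 ± 0.08). Of the 41 members lower in both TC and PC than in CC, 24 large and 17 small, 40 were higher in RC than in PC (97.6%), and so were 87.1% of the 4812 tested genes chosen in the same way. In RC, 10 of these 41 stood above CC (24.4%), 2 stood below it (4.88%) and 29 passed no test against it (70.7%). Over the 4812 genes these shares were 18.7%, 26.4% and 54.9%. The choice of genes low in PC bears on all of these shares, and the difference between members and other genes was not tested. TC, PC and RC were compared with the same CC libraries, and RC and PC share a group with their own comparison, so that these counts are not independent of each other.

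**Figure D5:**
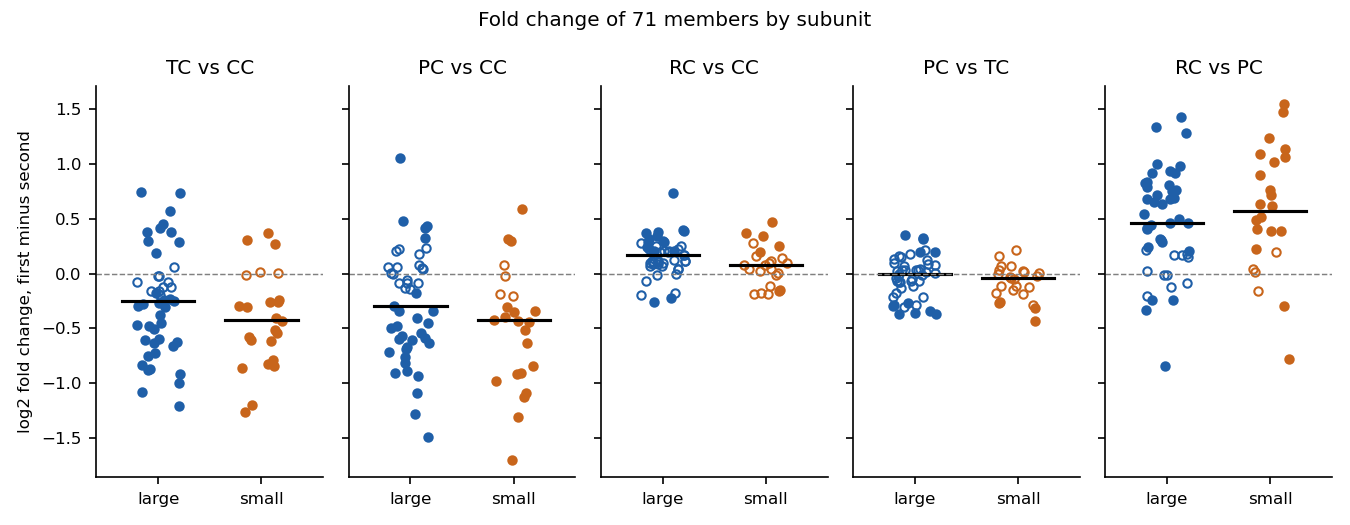
Log2 fold change of 47 large (blue) and 24 small (orange) members with a mean of at least 5 CPM in 5 comparisons, each the first group minus the second. Filled points passed the edgeR test at an adjusted p under 0.05, open points did not, and the bar is the median, which for small members is -0.42 in TC versus CC and 0.57 in RC versus PC.

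Below the filter were MRPL23, MRPL45, MRPS12 and MRPS24, with 0 to 2, 3 to 14, 0 to 1 and 0 to 1 counts per library. Their proteins include MRPL45, which anchors the ribosome to the inner membrane, and MRPS12, a protein of the decoding centre. The count table also lists numbered entries under some of these symbols, which the rule left out, and MRPL45_1 held 807 to 1738, MRPL23_1 68 to 1318 and MRPS12_1 18 to 779 counts. With the numbered entries added, MRPL45 was at 36.3, 31.5 and 27.9 CPM in CC and 24.2, 20.9 and 25.9 CPM in TC (log2 fold change -0.42 ± 0.12, edgeR adjusted p = 0.00671), a change in the direction of most members. MRPL23 with its entry was at 29.9, 2.02 and 24.6 CPM in TC, 1.70 to 3.82 CPM in CC and 13.8 CPM in the third RC library. The TC libraries of MRPL23 thus overlapped those of CC. MRPS24 shares 90.9% of its exon length with the readthrough gene URGCP-MRPS24 on the same strand.

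MRPS18B, MRPS18C and MRPS28 passed the filter at mean levels under 5 CPM. MRPS18B was called higher in TC, but 3.398 CPM in the second TC library stood against 0 and 0.0259 CPM in the others and at most 0.0712 CPM in every other group. This call, and that of MRPS18B as lower in PC than in TC, rests on 1 library. The symbol also has 6 numbered entries, so that its reads are uncertain. MRPS18C was at 0.714 to 1.49 CPM in every library and passed no test, and 83.6% of its exon length lies opposite exons of other genes. MRPS28 was at 0.444 to 0.813 CPM in CC and 1.02 to 1.53 CPM in RC (log2 fold change 1.03 ± 0.37, edgeR adjusted p = 0.0438). It shares 56.2% of its exon length with an unnamed gene on the same strand.

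Related lists were read beside the members. Of all tested genes 34.7% were lower and 33.2% higher in TC than in CC, and 19.1% and 18.2% in RC. The counts of these lists were not tested against those shares. Of 17 mitochondrial translation factors 14 fell and 3 rose in TC, with a median log2 fold change of -0.67. MTIF2, the initiation factor, changed by -1.16 ± 0.09, and MTRES1 by 0.52 ± 0.11. In RC 5 of the 17 were higher and 3 lower than in CC. Of 27 genes for mitoribosome assembly and ribosomal RNA modification 15 fell and 6 rose in TC, with a median of -0.30. TFB1M, which methylates the small subunit RNA, changed by -2.52 ± 0.14 from 24.2, 27.8 and 21.9 CPM to 4.20, 5.19 and 3.51 CPM, while YBEY rose by 1.30 ± 0.06. Of 5 subunit genes with other symbols 2 fell in TC, PTCD3 (-0.98 ± 0.06) and DAP3 (-0.57 ± 0.06). Of 5 genes for transcription of mitochondrial DNA 3 fell and 1 rose, with POLRMT, the RNA polymerase, at -1.41 ± 0.08 and MTERF1 at 1.21 ± 0.10. Of 9 upstream regulators 4 fell and 1 rose in TC, with MYC at -3.71 ± 0.15 and GABPA, an ETS factor, at 0.26 ± 0.07.

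Cytosolic ribosomal protein genes were read in the same way. Of 78 tested, 74 fell and 1 rose in TC with a median log2 fold change of -0.85, and 63 fell and 2 rose in PC with a median of -0.44. Of all tested genes 34.7% were lower and 33.2% higher in TC, and 35.9% and 33.2% in PC. Between TC and PC 67 of the 78 cytosolic genes rose and 1 fell (median 0.39), where the members had 5 higher and 12 lower. For all tested genes these shares were 12.2% higher and 12.5% lower. In RC 56 cytosolic genes were lower and 3 higher than in CC (median -0.26), where the members had 3 lower and 19 higher. For all tested genes these shares were 19.1% lower and 18.2% higher. The difference between both lists was not tested.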

How the data were processed

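The authors trimmed reads with fastp 0.20.1, aligned them to GRCh38.p13 with HISAT2 2.2.1 and counted them on exons with htseq-count (HTSeq 0.13.5) and the NCBI annotation, per the labels and the study's methods. Whether strand was used and how reads with several alignments were handled is not stated. The deposited file holds raw counts per gene, with no normalization, for 12 libraries.

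The test was run on genes whose mean scaled count was 10 or more. edgeR 4.0.16 (R 4.3.3) fitted all 12 libraries in a quasi-likelihood model with group means, with TMM factors (0.965 to 1.02) and 8 residual degrees of freedom. Tests were two-sided, with Benjamini-Hochberg adjustment over all 15916 genes and a threshold of 0.05, and glmTreat gave calls beyond 1.5-fold. Standard errors come from the F statistic. There were 5 comparisons, of each other group with CC, of PC against TC and of RC against PC. Medians over subunits are descriptions without a test. The code was tested on simulated data. No library pair behaved as a duplicate (chi-square per degree of freedom at least 10.8).

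Members and lists were chosen with earlier results of these data known. Named are the 4 largest rises and falls per subunit and comparison with CC, members with a set role, those under the filter and those beyond 1.5-fold. Members named with a level per kilobase, MRPL46 beside its neighbour, and the choice of 4 promoters came after values were seen. C12orf65 stands for MTRFR. Of 13 messenger RNAs of mitochondrial DNA, 0 were found in the count table under the symbols searched, with or without MT-, so that these were not analysed. Alternatives were RLE factors, library totals, a summed count of at least 2, DESeq2 1.42.0, only the groups compared, a replicate block, each library left out, subunits by structure and, chosen after seeing the data, numbered entries summed and members under 5 CPM left out.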

Additional observations from a re-analysis of the deposited data

Results flagged for a closer look

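In all, 12 of the 74 tested members (16.2%) were called in opposite directions against CC in TC and in RC by edgeR, against 12.6% of all tested genes. Of these, 11 were lower in TC and higher in RC (14.9%, against 6.8% of all tested genes). A called difference between RC and TC follows from this choice and adds no support, since all 2003 tested genes with such opposite calls had one. The log2 difference RC minus TC was 1.07 for MRPL9, 0.95 for MRPL11, 0.75 for MRPL12, 0.84 for MRPL13, 0.77 for MRPL19, 0.49 for MRPL38, 0.62 for MRPL51, 0.87 for MRPS6, 0.45 for MRPS7, 0.83 for MRPS31 and 0.88 for MRPS34. MRPL54 went the other way, higher in TC and lower in RC, with a difference of -0.64. The 2 effects of each gene share the CC libraries, and the calls in RC depend on which of these is included.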

How the results depend on the processing

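The counts of lower members in TC (45) and PC (42) stayed at 38 to 46 and 38 to 44 with any 1 library left out. Calls of higher members were less stable. In TC versus CC they ran from 9 (without CC library 1) to 15, in RC versus CC from 7 to 34 with lower calls from 1 to 6, and in PC versus TC from 0 (without PC library 2 or 3) to 7 with lower calls from 3 (without TC library 1 or PC library 3) to 15. Medians ran from 0.423 to 0.465 (large) and 0.569 to 0.645 (small) in RC versus PC, and from -0.104 to -0.03 (small) in PC versus TC. With a threshold of 1.5-fold the higher and lower counts were 1 and 15 in TC, 1 and 18 in PC, 0 and 0 in RC, 0 and 0 in PC versus TC, and 25 and 2 in RC versus PC. With only the groups compared, 9 members were higher in TC, 9 higher and 1 lower in RC, and 8 higher in PC versus TC. Library totals gave 1 lower in RC. With a summed count of at least 2, 3 were higher in PC versus TC, the small median in RC versus PC was 0.572 and MRPS36 in TC stood at 0. MRPS36 in TC, at -0.02, ran from -0.154 (without CC replicate 3) to 0.21 (without CC replicate 2), and was 0.032 without TC replicate 3. Adding numbered entries gave a small median of 0.569 in RC versus PC, and leaving out members under 5 CPM gave 0.571 there and -0.421 in TC; both were chosen after seeing the data. The cause of these shifts was not tested. RLE factors and DESeq2 changed no count by over 1.5 times and moved no median beyond the spread between libraries. Subunits by structure moved no median beyond that spread either, and this setting cannot change the counts over all members.

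Replicate numbers are shared between groups, and nothing in the labels says what they mark. Correlations of same-numbered libraries were over 0.1 in 2 of 15 pairs, both in PC versus TC (0.068 to 0.155, other pairs -0.121 to 0.003), and in no comparison did every pair pass 0.1. All 6 libraries correlated best with their own number in PC versus TC, TC versus CC and PC versus CC, a hint from the data and not the design, and 1 of 6 did in each comparison with RC. With a replicate block the higher and lower counts were 14 and 44 in TC, 11 and 43 in PC, 20 and 4 in RC, 6 and 15 in PC versus TC, and 52 and 6 in RC versus PC. MRPS18B, MRPS18C, MRPS28 and the 4 members under the filter had few counts under their own symbols, and whether depth or the assignment of reads set this was not tested.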

Other observations

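Transcript length was set beside the fold changes as a description. Over 47 large members with a mean of at least 5 CPM the Spearman rho between MANE transcript length and the log2 fold change of TC against CC was -0.351, over 24 small members 0.162, and over 12696 tested protein-coding genes 0.00627. Among the 24 shortest members (496 to 1016 nt, 20 of them large) 7 rose and 11 fell in TC, with a median log2 fold change of -0.16. Of the 23 of middle length (1074 to 1648 nt) 2 rose and 18 fell (median -0.47), and of the 24 longest 4 rose and 16 fell (median -0.28). Over all tested genes 33.2% rose and 34.7% fell, and the medians of tested protein-coding genes in the same length ranges were -0.07, -0.05 and -0.01. MRPL33 (508 nt) and MRPL41 (582 nt), which rose, are both among the shortest, and so is MRPL53 (496 nt), which did not pass the test. Genes are not independent replicates.

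Log2 fold changes of some members and their divergent neighbours are given side by side. MRPL27, with a log2 fold change of 0.30 in TC, starts 45 nt from EME1, a DNA repair nuclease subunit gene at -2.33. MRPL57 was at -0.16 beside SKA3, a kinetochore gene, at -3.22, and MRPL43 at 0.38 beside TWNK, the mitochondrial DNA helicase gene, at -0.76. MRPL18 was at 0.74 in RC and its neighbour TCP1, a chaperonin subunit gene, at 0.72. These pairs were chosen after their values were seen.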
